A study of Rattus norvegicus with 23 samples.

Results

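The genes described here were Nr1d1 and Nr1d2, Dbp, Tef and Hlf, and Ciart, measured on arrays in the lung of elderly rats after inhalation of titanium dioxide. The 6 genes were chosen by name from results of these same arrays, so their values in the comparisons below are a description and carry no test. They were found through the gene name of each probe and covered 10 probes on 19 spots, of 23022 genes measured in all. The 23 rats were male F344 rats aged 19 months at exposure. Control rats breathed filtered air, and exposed rats breathed an aerosol of nanostructured TiO2 (Aeroxide P25) at 10 mg/m3 through the nose, 6 h a day on 5 days a week for 4 weeks. The arrays analysed here held lungs of 6 control and 5 exposed rats taken at the end of exposure (D0), and of 6 control and 6 exposed rats taken 28 days later (D28). The design states 6 exposed rats on each day, so 1 exposed D0 rat was not analysed here. Each array held RNA of the accessory lobe of 1 rat, a mixture of all its cells, in which fewer cells of a type and less RNA per cell cannot be told apart. The hour of killing was not given in the sources used here, and D0 and D28 rats differed in sampling day and in age, which cannot be told apart. The lung identity of the samples was clear from Ager, a type I pneumocyte gene, at mean log2 signals of 16.61 to 16.99 in the 4 groups, and from Scgb1a1, the club cell secretory protein gene, at 16.3 to 16.6.

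The circadian clock is a loop of transcription factors that runs in nearly every cell, lung cells included. CLOCK, or its relative NPAS2, pairs with BMAL1 (gene Arntl) and switches on genes through a short DNA motif, the E-box. Among these are Nr1d1 and Nr1d2, which encode the nuclear receptors REV-ERBα and REV-ERBβ. They repress Arntl and Npas2 through ROR elements and so close a second loop. Dbp, Tef and Hlf encode the PAR bZIP factors, which carry the rhythm to output genes through D-boxes and are opposed there by the repressor NFIL3. Ciart encodes CHRONO, a repressor of the CLOCK and BMAL1 pair. In a running clock the transcripts of the 6 genes and that of Arntl peak in opposite parts of the day.

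The gene-start sequences below are shown because the CLOCK and REV-ERB motifs named above can be read in them. They are RefSeq sequences of the rat genome build GRCr8, each running 5′ to 3′ from 250 bases before to 50 bases after a gene start, with motif letters in capitals. A script searched both strands for the E-box CACGTG, the D-box TTATGTAA or TTACGTAA, and the ROR element TAGGTCA or TGGGTCA. Nr1d1 had a window for each of 2 starts, Hlf was not matched, and Arntl is listed there as Bmal1.
Ciart, chr2:186112197-186112496, minus strand: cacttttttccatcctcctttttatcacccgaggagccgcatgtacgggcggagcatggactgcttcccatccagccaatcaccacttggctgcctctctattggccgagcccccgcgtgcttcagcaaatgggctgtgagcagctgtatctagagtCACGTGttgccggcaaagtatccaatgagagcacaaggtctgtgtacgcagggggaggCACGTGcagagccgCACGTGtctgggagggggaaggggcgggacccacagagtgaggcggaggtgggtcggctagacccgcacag
Tef, chr7:115206577-115206876, plus strand: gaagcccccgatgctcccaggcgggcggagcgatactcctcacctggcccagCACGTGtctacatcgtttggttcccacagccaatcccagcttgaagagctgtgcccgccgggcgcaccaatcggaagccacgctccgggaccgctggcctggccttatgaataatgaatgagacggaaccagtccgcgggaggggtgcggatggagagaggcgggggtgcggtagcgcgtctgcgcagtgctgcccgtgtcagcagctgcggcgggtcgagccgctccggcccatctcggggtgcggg
Nr1d1, chr10:84229405-84229704, minus strand: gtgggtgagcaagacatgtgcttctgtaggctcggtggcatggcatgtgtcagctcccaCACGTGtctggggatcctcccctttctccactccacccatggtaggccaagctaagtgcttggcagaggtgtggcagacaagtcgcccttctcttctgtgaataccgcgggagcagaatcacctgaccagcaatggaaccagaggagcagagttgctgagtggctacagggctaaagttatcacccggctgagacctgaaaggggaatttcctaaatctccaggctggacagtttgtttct
Bmal1, chr1:176766078-176766377, plus strand: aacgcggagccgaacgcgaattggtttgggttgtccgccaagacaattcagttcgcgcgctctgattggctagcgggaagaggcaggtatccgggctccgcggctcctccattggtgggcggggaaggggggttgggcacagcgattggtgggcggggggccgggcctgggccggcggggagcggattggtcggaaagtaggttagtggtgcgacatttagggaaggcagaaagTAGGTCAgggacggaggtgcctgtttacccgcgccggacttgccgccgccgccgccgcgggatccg
The Ciart window held 3 E-boxes, and the Tef window and this Nr1d1 window held 1 each. Of 33465 windows of the same length, 6.42% held at least 1 CACGTG and 0.0568% held 3 or more. The Bmal1 window held 1 ROR element, which 6.60% of windows had. None of these letters stood in the Dbp or Nr1d2 window or in the window of the other Nr1d1 start, and no D-box, present in 1.01% of windows, stood in any window of these genes. A match here is a string of letters and not a measured binding site.

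What the array read was the brightness of 60-base probes, each bound by the transcript of its gene. Nr1d1 had 1 probe, placed at chr10:87543165-87543519 on the minus strand of build rn4, a span of 355 bases that is wider than the probe, as for a sequence joined from exons. Nr1d2 had 2 probes with no genome position in the files, of which the dimmer is shown. Both sequences below lie in the coding part of their transcripts and are shown as what the REV-ERB signals report.
Nr1d1 probe: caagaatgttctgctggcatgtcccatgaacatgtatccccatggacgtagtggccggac
Nr1d2 probe: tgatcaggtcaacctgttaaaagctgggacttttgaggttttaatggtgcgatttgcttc
Dbp was read by 2 probes 3′ in the gene, at chr1:96178285-96178344 and chr1:96178423-96178482 on the plus strand of rn4, the latter printed on 10 spots of every array. Tef had 1 probe at chr7:120179652-120179711 on the plus strand. Hlf had 3 probes on the minus strand of chromosome 10, of which the brightest, at chr10:78747751-78747810, was well above background on all 23 arrays. Its other two were so on 14 and 4 arrays. Ciart had 1 probe, at chr2:190661052-190662122 on the minus strand, which was well above background on 1 of 23 arrays. All 10 probes passed the intensity filter, and no spot of the 6 genes was saturated. Hlf is therefore described by its brightest probe where a single value is given. Ciart enters the counts and medians of the 6 genes, and its log2 difference is printed only beside its values under other processing. Otherwise Ciart is given as signals, since most of them lay below the lowest values that the scanner told from background. These lowest values were 3.15 to 4.43 on the log2 scale in the different arrays.

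In control lungs, the 5 genes with a clear signal were high on D0 and low on D28. Dbp, the strongest oscillator of the PAR bZIP genes in many tissues, lay between 13.4 and 14.1 log2 units in the D0 control rats (median 14.0) and between 9.30 and 10.2 in the D28 control rats (median 9.70). Its mean fell from 13.9 ± 0.31 (SD, n = 6) to 9.74 ± 0.33 (n = 6), a log2 difference of -4.13 ± 0.33 (SE), or 17.5-fold lower. The groups lay far apart, with every D28 control rat below every D0 control rat. In absolute log2 difference Dbp ranked 1 of the 23022 genes in this comparison, and Nr1d1 ranked 4.

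Nr1d1, the REV-ERBα gene, ranged from 8.47 to 9.49 log2 units in D0 control rats (median 8.999) and from 6.07 to 7.51 in D28 control rats (median 6.23). The means were 9.03 ± 0.39 and 6.61 ± 0.68, a log2 difference of -2.42 ± 0.36 (5.35-fold lower). Among D28 control rats, 4 rats lay between 6.07 and 6.29 and the remaining 2, replicates 5 and 6, at 7.46 and 7.51. Nr1d2, the REV-ERBβ gene, lay between 9.78 and 10.2 on D0 (median 10.0) and between 8.07 and 9.11 on D28 (median 8.49), with a log2 difference of -1.48 ± 0.20 (2.79-fold lower). Its 2 probes gave -1.70 ± 0.21 and -1.26 ± 0.26.

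The other two PAR bZIP genes followed with smaller differences. Tef lay between 12.5 and 13.2 log2 units in D0 control rats (median 13.0) and between 11.1 and 11.8 in D28 control rats (median 11.6), a log2 difference of -1.44 ± 0.20. The brightest Hlf probe lay between 8.53 and 9.23 on D0 (median 8.82) and between 7.01 and 8.001 on D28 (median 7.74), a log2 difference of -1.27 ± 0.23. In neither gene did the 2 control groups overlap. Ciart signals ran from 3.13 to 4.57 on D0 and from 1.76 to 3.01 on D28, with 1 rat of 12 well above background. The groups did not overlap, but this compares signals that were mostly not told from background. With signals below the lowest value told from background raised to it, the Ciart means were 4.00 on D0 and 3.80 on D28.

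**Figure D1:**
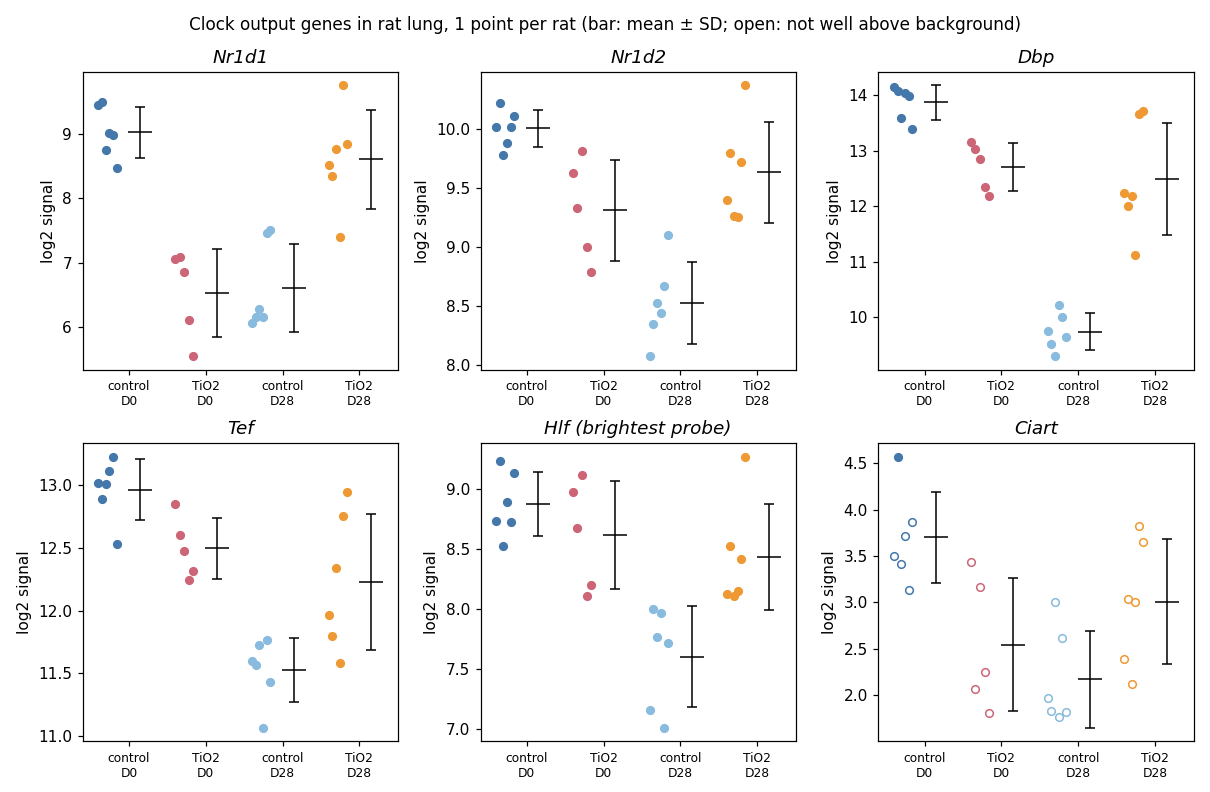
Log2 signal (vertical axis, quantile-normalized) of each of the 6 genes in the 4 groups, 1 point per rat, with the mean ± SD as a bar beside the points; open points were not well above background. Dbp fell from a mean of 13.9 in D0 control rats to 9.74 in D28 control rats, while the exposed rats of both days lay between them at 12.7 and 12.5.

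The limits for a call were an adjusted p below 0.05 in limma and at least a 1.5-fold difference. All 6 genes lay past both in the downward direction, against 0.222% of all genes. Ciart is counted here on signals that were not well above background in 11 of the 12 control rats, and its log2 difference of -1.53 shrank to -0.23 after normexp correction and to -0.35 in the deposited table, which left 5 genes past the limits. The Hlf mean over its probes shrank from -1.56 to -0.63 and -0.77 and stayed past them. The 6 genes also showed groups that did not overlap, D28 below D0, against 0.599% of all genes. The same limit on Ciart holds for this count. Since the genes were selected on this comparison, nothing is read from these counts. The median log2 difference of the 6 genes was -1.55, and -1.56 without Ciart, beside -0.01 over all genes. The value without Ciart is that of the Hlf mean over its probes, whose brightest probe gave -1.27. Within the 3 slides that held control rats of both days, the log2 difference ran from -4.66 to -3.74 for Dbp, from -3.27 to -0.97 for Nr1d1 and from -1.45 to -1.10 for Tef.

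At the end of exposure, Nr1d1 was the gene of the 6 that lay furthest from its controls. The 5 exposed rats had Nr1d1 signals of 7.05, 7.09, 6.86, 6.11 and 5.55 log2 units, and no exposed rat came within 1 log2 unit of the lowest control rat at 8.47. Their mean of 6.53 ± 0.68 (SD, n = 5) lay 2.50 ± 0.37 log2 units below the control mean, or 5.64-fold lower. It was as low as the D28 control mean of 6.61 ± 0.68, and 4 of the 5 exposed rats lay within the range of the D28 control rats.

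Dbp moved less on D0. The exposed rats had Dbp signals of 13.2, 13.0, 12.9, 12.3 and 12.2 log2 units against 13.4 to 14.1 in control rats. The log2 difference was -1.16 ± 0.35 (2.23-fold lower), and the groups did not overlap, although the highest exposed rat lay close to the lowest control rat. All 5 exposed rats stayed above every D28 control rat. Between these genes the order of change was thus reversed from that in control lungs over time, where Dbp had the larger log2 difference. This contrast between genes was seen first and carries no test.

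Nr1d2 had signals of 9.63, 9.33, 9.81, 8.998 and 8.79 log2 units in the exposed D0 rats, of which 4 lay below every control rat. The log2 difference was -0.70 ± 0.21. Tef differed by -0.47 ± 0.21 with 3 of 5 exposed rats below every control rat, and the brightest Hlf probe by -0.26 ± 0.24 with 2 of 5, so that Hlf differed by about the size of its error. Ciart signals ran from 1.81 to 3.43 in exposed rats, none well above background, and from 3.13 to 4.57 in control rats. The median log2 difference of the 6 genes was -0.93, and -0.70 without Ciart, beside -0.00 over all genes.

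Of the 6 genes, 1 lay past both limits downward on D0 (Nr1d1), against 0.695% of all genes. Groups that did not overlap, exposed below control, were seen for 2 (Nr1d1 and Dbp), against 2.37% of all genes. This comparison was in view when the genes were selected, and nothing is read from the counts. Within the 4 slides that held both groups, the log2 difference ran from -3.11 to -1.61 for Nr1d1, from -1.72 to -0.53 for Dbp, from -0.88 to -0.04 for Tef and from -0.9997 to 0.34 for the Hlf mean over its probes, whose sign was therefore not the same in every slide.

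On D28 the direction was turned: exposed rats had higher mean signals than control rats for the 5 genes with a clear signal. Dbp signals ran from 11.1 to 13.7 log2 units in exposed rats (median 12.2) against 9.30 to 10.2 in control rats. The mean of 12.5 ± 1.01 (SD, n = 6) lay 2.75 ± 0.33 log2 units above the control mean, or 6.72-fold higher, and the groups did not overlap. Nr1d1 ran from 7.40 to 9.75 in exposed rats (median 8.64), with a log2 difference of 2.00 ± 0.36 (3.99-fold higher). For Nr1d1, 5 of 6 exposed rats lay above every control rat, and replicate 4 at 7.40 lay inside the control range.

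Nr1d2 ran from 9.26 to 10.4 log2 units in exposed D28 rats (median 9.56), above every control rat, with a log2 difference of 1.11 ± 0.20 (2.16-fold higher). Tef differed by 0.71 ± 0.20 with 5 of 6 exposed rats above every control rat. The brightest Hlf probe ran from 8.11 to 9.27 (median 8.29), above every control rat, and differed by 0.83 ± 0.23. Ciart signals ran from 2.12 to 3.83, none well above background in either D28 group. The median log2 difference of the 6 genes was 0.97, and 1.11 without Ciart, beside -0.01 over all genes.

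Of the 6 genes, 3 lay past both limits upward on D28 (Nr1d1, Nr1d2 and Dbp), against 0.486% of all genes, and 2 showed groups that did not overlap on the value per gene (Nr1d2 and Dbp), against 0.678%. Nothing is read from these counts either. Within the 3 slides that held both D28 groups, the log2 difference ran from 2.36 to 3.04 for Dbp, from 0.84 to 2.49 for Nr1d1 and from 0.69 to 1.38 for Nr1d2.

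**Figure D2:**
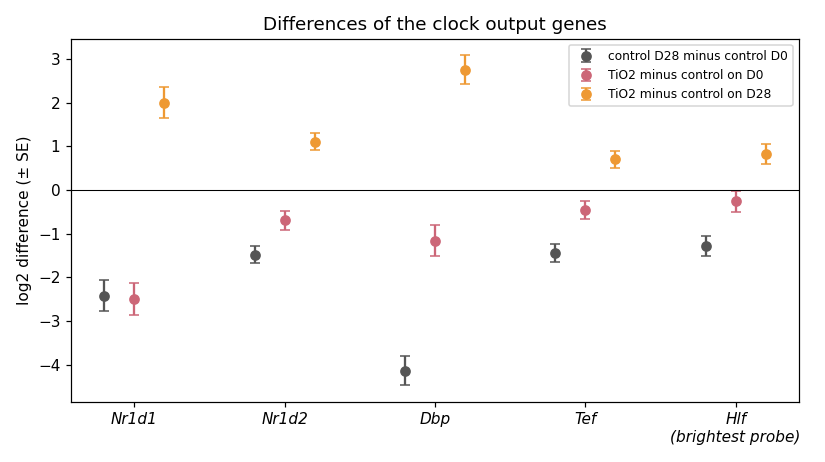
Log2 difference (vertical axis) ± SE of each gene with a signal well above background, for control D28 minus control D0, TiO2 minus control on D0 and TiO2 minus control on D28; Hlf is its brightest probe and Ciart is left out. The D0 exposure difference was -2.50 for Nr1d1 and -1.16 for Dbp, and on D28 it was 2.00 and 2.75. The comparisons share control groups, so their values are not independent of each other.

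The exposed rats of the 2 days lay near each other for every gene with a clear signal except Nr1d1. Between exposed D28 and exposed D0 rats, the log2 difference was -0.22 ± 0.35 for Dbp, -0.27 ± 0.21 for Tef, -0.18 ± 0.24 for the brightest Hlf probe and 0.32 ± 0.21 for Nr1d2, none far beyond its error. For Nr1d1 it was 2.07 ± 0.37, and all 6 exposed D28 rats lay above every exposed D0 rat. Nr1d1 was the 1 gene of the 6 past both limits here, against 0.352% of all genes. For the order of the levels, Dbp, Tef and Hlf ran control D0, exposed D0, exposed D28 and control D28 from high to low, with the 2 exposed groups not apart beyond their spread. The control and exposed rats of D0 overlapped for Tef and Hlf, and those of D28 for Tef. Nr1d2 ran control D0, exposed D28, exposed D0, control D28, with each group overlapping its neighbour in that order. For Nr1d1 the high pair was control D0 and exposed D28 and the low pair was control D28 and exposed D0, with neither pair apart beyond its spread.

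The exposure difference on D28 minus that on D0 was 4.49 ± 0.52 log2 units for Nr1d1, 3.91 ± 0.48 for Dbp, 1.80 ± 0.29 for Nr1d2, 1.17 ± 0.29 for Tef and 1.09 ± 0.33 for the brightest Hlf probe. It lay past both limits for Nr1d1, Nr1d2 and Dbp, among 7 genes in all (0.0304% of all genes). The other four were Cry1, Rasd2, Grin2c and Prss30, named after their values were seen. This count was also in view when the genes were selected.

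Rats of the same group tended to differ in these genes together. The exposed D28 group was the most spread for Dbp, where replicates 5 and 6 lay at 13.7 and 13.7 log2 units, near the D0 control rats, while replicate 4 lay at 11.1. In Tef, replicates 5 and 6 were again the highest at 12.8 and 12.9, and replicate 4 the lowest at 11.6. Replicate 4 was also the lowest exposed D28 rat for Nr1d1. After the group means were removed, the 10 pairs among Nr1d1, Nr1d2, Dbp, Tef and Hlf had Pearson correlations of 0.34 to 0.75 over the 23 rats, with the highest between Dbp and Tef. The values of a pair came from the same arrays, so the correlation is a description. The spots themselves were far more alike than the rats: the 10 spots of the Dbp probe had a median SD of 0.045 log2 units within an array, against 0.64 between rats of a group. The within-group SD of Dbp was larger than that of 98.7% of the 1000 genes nearest to it in mean signal, and that of Nr1d1 larger than 98.0%.

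Arntl, the activator gene, stood the other way from the output genes. Over the 23 arrays, Arntl had the lowest correlation of all 23016 other genes with the mean of the 6 genes, each scaled to a mean of 0 and an SD of 1 (Pearson r -0.87, Spearman rho -0.82). After removal of group means r was -0.52, and without the 2 arrays furthest from the median of the scaled mean it was -0.84. The scaled mean gave equal weight to Ciart, mostly not told from background, and to the Hlf mean over its probes. It was not recomputed without them. Arntl had a log2 signal of 7.30 ± 0.43 in D0 control, 7.88 ± 0.49 in exposed D0, 9.71 ± 0.26 in D28 control and 8.47 ± 0.54 in exposed D28 rats. Between control groups it rose by 2.41 ± 0.25 log2 units (limma adjusted p = 8.09e-06). On D28 it was lower in exposed than in control rats by -1.25 ± 0.25 (limma adjusted p = 0.0126), and on D0 the difference of 0.58 ± 0.26 did not pass (adjusted p = 0.343).

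**Figure D3:**
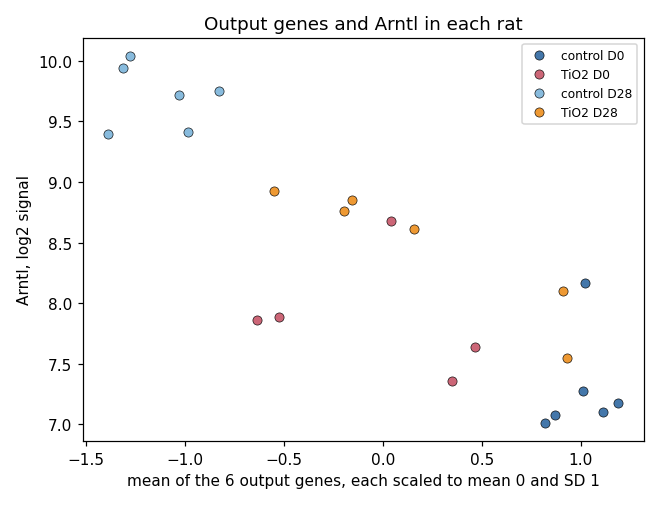
Arntl log2 signal (vertical axis) against the mean of the 6 output genes, each scaled to mean 0 and SD 1 over the 23 arrays (horizontal axis), 1 point per rat, coloured by group. D28 control rats sit at the upper left and D0 control rats at the lower right, and exposed D28 replicates 5 and 6 lie next to the D0 control rats.

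Npas2, which encodes the other partner of BMAL1 and is also repressed by REV-ERB, rose between control groups by 2.78 ± 0.19 log2 units (limma adjusted p = 1.24e-08). On D28 it was lower in exposed rats by -1.02 ± 0.19 (adjusted p = 0.00684). On D0 its difference was -0.40 ± 0.19 (adjusted p = 0.433), with the sign opposite to that of Arntl. Clock did not pass in any comparison, with log2 differences of -0.19 ± 0.21 on D0, -0.30 ± 0.20 on D28 and 0.13 ± 0.20 between control groups.

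The Period and Cryptochrome genes, whose proteins repress CLOCK and BMAL1, did not all follow the output genes. Per2 fell between control groups by 2.37 log2 units (SE 0.22, limma adjusted p = 1.65e-06), was higher in exposed rats on D28 by 1.104 ± 0.22 (adjusted p = 0.0123) and differed by 0.25 ± 0.23 on D0 (adjusted p = 0.839). Per1 was lower in exposed rats on D0 by -1.41 ± 0.33 (adjusted p = 0.0181), with differences of 0.02 ± 0.31 on D28 and -0.41 ± 0.31 between control groups (adjusted p = 0.994 and 0.620). Without exposed D0 replicate 1 the Per1 call was lost. Per3 differed by -0.38 ± 0.26, 0.28 ± 0.25 and -0.88 ± 0.25 in these comparisons, none past the limits. Its mean signals, from 3.69 in D28 control to 4.57 in D0 control rats, lay near the lowest values told from background.

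Cry1 was the clock gene outside the 6 whose exposure difference itself differed between days. It was higher in exposed rats on D0 by 0.81 ± 0.14 log2 units (limma adjusted p = 0.00158) and lower on D28 by -0.87 ± 0.13 (adjusted p = 0.00142), and the D28 minus D0 difference of -1.67 ± 0.19 passed (adjusted p = 0.000232). The control groups differed by 0.20 ± 0.13 (adjusted p = 0.537). Cry2 fell between control groups by 0.85 log2 units (SE 0.15, adjusted p = 0.00552), with differences of -0.20 ± 0.16 on D0 and 0.32 ± 0.15 on D28 (adjusted p = 0.789 and 0.444). Nfil3, whose protein competes with the PAR bZIP factors for D-boxes, rose between control groups by 0.79 ± 0.17 (adjusted p = 0.0238), with 0.42 ± 0.18 on D0 and -0.36 ± 0.17 on D28 (adjusted p = 0.3 and 0.420). Of the E-box repressors DEC1 and DEC2, the former (Bhlhe40) fell between control groups by 0.66 (SE 0.10, adjusted p = 0.00196), and the latter (Bhlhe41) rose on D0 by 0.68 ± 0.17 (adjusted p = 0.0285). Neither call held after normexp correction (log2 differences of -0.53 and 0.51) or in the deposited table (-0.57 and 0.56), which fell short of 1.5-fold. The Bhlhe41 call was also lost with the brightest probe (0.41), and the Nfil3 call after normexp correction (0.53).

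**Figure D4:**
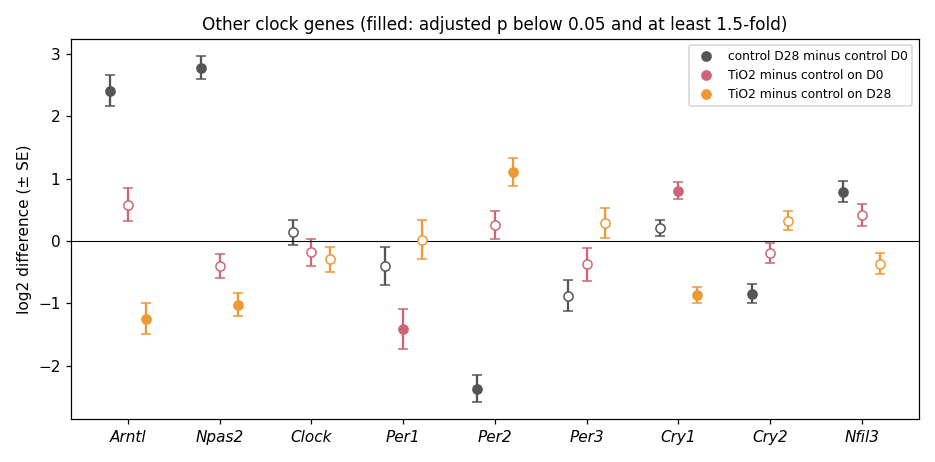
Log2 difference (vertical axis) ± SE of 9 other clock genes for control D28 minus control D0, TiO2 minus control on D0 and TiO2 minus control on D28, with filled points where adjusted p was below 0.05 and the difference at least 1.5-fold. Arntl and Npas2 rose by 2.41 and 2.78 between control groups, and Per2 fell by 2.37; Cry1 was filled in opposite directions on D0 and D28.

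Of 26 other clock genes in 3 lists of activators, repressors, and turnover factors and cofactors, 4 passed both limits on D0 (3 higher, 1 lower), against 1.79% of all genes in either direction. On D28 4 passed (1 higher, 3 lower), against 0.756%, and between control groups 6 passed (3 higher, 3 lower), against 0.608%. These lists were chosen with earlier results of these data known, so the counts are a description. None of the 11 turnover factors and cofactors, such as the kinases Csnk1d and Csnk1e and the REV-ERB corepressor Ncor1, passed in any of these comparisons. Their median log2 differences were -0.01, -0.06 and -0.04. Fbxl21 of these, and Arntl2 among the activators, were not well above background in most rats. With the spread taken from the 2 D28 groups alone, none of the 26 passed on D28. Between exposed groups, Npas2 rose from D0 to D28 by 2.15 ± 0.19 (adjusted p = 3.58e-06), while Per2 and Cry1 fell, with log2 differences of -1.52 and -1.47 (adjusted p = 0.00131 and 3.62e-06).

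Output genes of REV-ERB, of the PAR bZIP factors and of E-boxes passed the limits in few cases. Il6 and Elovl3 among the genes repressed by REV-ERB were not well above background in most rats. The same held for Abcb1a and Nr1i3 among the others, so little can be read from these genes not passing. Of 9 genes that REV-ERB is known to repress in other tissues, 1 passed on D0 and 1 between control groups, both upward. These were Ccl2, a monocyte chemokine, on D0 (1.46 ± 0.29, limma adjusted p = 0.00657) and Cdkn1a, the p21 cell-cycle inhibitor gene, between control groups (0.89 ± 0.21, adjusted p = 0.0383). The median log2 difference of the 9 was -0.09 on D0 and 0.01 between control groups. Over all genes, 1.79% passed on D0 in either direction and 0.608% between control groups. Of 9 measured output genes of PAR bZIP factors and E-boxes, none passed on D0 or D28. Between control groups 2 fell. Wee1, the gene of a kinase that restrains entry into mitosis, had a log2 difference of -0.76 ± 0.12 (adjusted p = 0.00242), and Cyp2a3, a cytochrome P450 gene of the airways, one of -1.91 ± 0.31 (adjusted p = 0.00240). Wee1 also fell between exposed groups by 0.68 (SE 0.13, adjusted p = 0.0140).

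Of 12 genes that glucocorticoids induce, some passed the limits in each comparison, and the median log2 difference of the list was -0.58 on D0, -0.17 on D28 and 0.24 between control groups. Over all genes, 1.79% passed on D0 in either direction, 0.756% on D28 and 0.608% between control groups. The list, like the others, was chosen with earlier results of these data known, so the counts are a description. On D0 4 of 12 fell in exposed rats, Klf15, Zbtb16, Klf9 and Errfi1, with log2 differences of -1.68, -1.99, -0.86 and -0.68 (limma adjusted p = 7.88e-05, 0.0435, 0.00311 and 0.0428). Angptl4 rose by 1.09 (adjusted p = 0.0240). The mean log2 signal of the list ran from 9.79 to 10.0 in exposed D0 rats and from 10.2 to 10.6 in D0 control rats, with no overlap. On D28 Zbtb16 and Fkbp5 fell, with log2 differences of -2.23 and -1.02 (adjusted p = 0.0294 and 0.0266), while the list mean ran from 9.88 to 10.7 in exposed and from 10.5 to 11.2 in control rats. Between control groups Pdk4 and Angptl4 rose by 1.44 and 1.11 (adjusted p = 0.0296 and 0.0344), and between exposed groups Klf15 rose by 1.08 (adjusted p = 0.00948). The part of these genes in the differences of the 6 was not tested. Of 9 immediate early genes none passed in the exposure comparisons or between control groups.

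Of 64 cell type markers in 12 lists, 2 passed on D0 (Siglec1, a macrophage receptor, higher, and Myl7, an atrial muscle gene, lower), 1 on D28 (Myl7, lower) and none between control groups. The shares over all genes were 1.79% on D0, 0.756% on D28 and 0.608% between control groups. The macrophage list had a mean log2 signal of 8.47 to 8.84 in exposed D0 rats and of 8.10 to 8.34 in D0 control rats, so that the groups did not overlap there. Its part in the D0 differences was not tested. In D28 rats the list ran from 8.22 to 8.58 in exposed and from 7.96 to 8.48 in control lungs. The neutrophil list ran from 7.86 to 9.16 in exposed and from 8.04 to 9.47 in control rats on D0. Between control groups, the medians of the 12 lists lay between -0.19 and 0.18. There the 5 genes with a clear signal lay past both limits. Ciart did so in the main setting but not after normexp correction or in the deposited table. The list medians of the exposure comparisons ranged more widely, from -0.47 to 0.42 on D0 and from -0.49 to 0.19 on D28. The part of these shifts in the differences of the 6 genes was not tested.

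Among genes outside the 6, the signals most like their scaled mean over the 23 arrays were those of Rasd2, Ifrd2, Pde4c, Epm2a and LOC102549750, with Pearson r of 0.91, 0.86, 0.86, 0.85 and 0.84. After removal of group means these were 0.72, 0.58, 0.59, 0.63 and 0.44. Spearman rho was 0.90, 0.83, 0.78, 0.89 and 0.84. Rasd2, a gene of a small GTPase, had mean log2 signals of 9.71 in D0 control, 9.23 in exposed D0, 7.97 in D28 control and 9.47 in exposed D28 rats. Cry2 came next at rank 6 (r 0.84), and Per2 and Per3 ranked 19 and 21. At the other end, Arntl was followed by Ccnjl, Adm, Hs3st6 and LOC103694973, with r of -0.86, -0.84, -0.82 and -0.81. Spearman rho for these genes was -0.86, -0.83, -0.70 and -0.87, and r after removal of group means was -0.54, -0.42, -0.70 and -0.61. Adm encodes the vasodilator peptide adrenomedullin, and Hs3st6 a heparan sulfate sulfotransferase. Npas2 ranked 35 from the lowest (r -0.67). Epm2a was not well above background in D28 control rats, and LOC103694973 in no D0 rat. These likenesses were picked as the extremes of all genes over arrays that share their group structure, and carry no test. The scaled mean they refer to included Ciart, and no ranks without Ciart were taken.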

How the data were processed

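Lung RNA of 23 rats was hybridized to one-colour Agilent rat arrays, 1 array per rat. The deposited intensity values were written by the authors' Agilent Feature Extraction 11.0.1.1, per the file headers and processing notes, with 1 array (control D28 replicate 4) read by 12.0.1.1; its gene names were used for every array. The processed signal is already background-subtracted. The deposited value table held, in all arrays, values ordered as the median spot intensity. Per the methods, the study filtered probes against negative controls, quantile-normalized, corrected an unnamed batch and used limma. The groups come from the titles; the source label of exposed D28 arrays reads Day 0.

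Here a probe entered if it exceeded the 95th percentile of the 308 negative controls in 5 or more arrays (40407 of 45598 did), outlier spots (0.794%) were left out, log2 signals were quantile-normalized, and probes of a gene were averaged (23022 genes). Limma 3.58.1 in R 4.3.3 fitted 4 group means with 19 residual degrees of freedom and no batch term, with Benjamini-Hochberg adjustment over all genes, an adjusted p limit of 0.05 and a 1.5-fold limit. The fit was tested on simulated data. Between 69.5% and 77.9% of spots per array were well above background, and the number of arrays limits the precision.

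The 6 genes, the other gene lists and the rule for named genes were chosen with earlier results of these data known. By that rule the text names the 6 genes, 9 clock genes, up to 10 genes per comparison of the first 6 lists past both limits, and the 5 most and 5 least correlated genes; some genes that the rule would name are not reported here. Files of 22 arrays give the name Ciart to 4 further probes, which the newer names do not and which were not used. The alternatives were 75th percentile scaling, normexp correction with an offset of 50, the deposited table, other probe filters, the brightest probe per gene, slide or replicate number as a block, trend with robust estimation, the 2 groups compared alone, and each array left out.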

Additional observations from a re-analysis of the deposited data

Results flagged for a closer look

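In 60 sets of 5 or 6 rats, given by the 6 output genes and 9 other clock genes in 4 groups, 3 held 1 rat far from the rest; chance sets apart about 1 in 20 such sets. Arntl was 8.17 log2 units in control D0 replicate 3, against 7.01 to 7.27 in the other control D0 rats. Per3 was 4.62 in control D28 replicate 3, against 3.38 to 3.62, and 5.10 in exposed D28 replicate 6, against 3.49 to 3.98. These Per3 signals lay near the lowest values told from background, 3.15 to 4.43 in the different arrays, which limits what can be read from them.

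For Dbp every exposed rat lay below all control rats on D0 and above them on D28, and the exposure differences lay 3.91 log2 units apart. This difference was not tested, since the gene was selected with it in view. For Cry1 the exposure difference on D28 minus that on D0 was -1.67 (limma adjusted p = 0.000232, above every control rat in 5 of 5 exposed rats on D0 and below every control rat in 6 of 6 on D28).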

How the results depend on the processing

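Over 1148 values of the 6 genes and their medians under the alternatives, none that exceeded its spread changed sign. Of these, 18 moved by more than the spread between rats, all under normexp correction or in the deposited table. An offset, or no background subtraction, as used there, compresses dim signals, but its part in these moves was not tested. Nr1d1, well above background on all 23 arrays, was among the genes that moved. Under normexp the median of the 6 on D0 was -0.51 in place of -0.93, Nr1d1 -1.83, and the difference between the exposure effects had a median of 1.30 in place of 1.90; in the deposited table it was 1.41. The count of other clock genes higher on D0 was 1 under normexp in place of 3. With the 2 D28 groups alone, 0 other clock genes were higher and 0 lower on D28, in place of 1 and 3. With single arrays left out, the count lower on D0 ran from 0 to 1, the 0 without exposed D0 replicate 1.

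Without Ciart, an alternative chosen after seeing the data, the medians were -0.70, 1.11, -1.56, -0.22 and 1.80 for the exposure on D0, on D28, control D28 minus D0, exposed D28 minus D0, and the difference of the exposure effects. The replicate numbers share no stated origin: same-numbered arrays of 33 pairs had residual correlations of -0.30 to 0.46, with 12 above 0.1. With the replicate number as a block the median was -0.86 on D0 and 0.97 on D28, and 355 and 138 genes passed in place of 412 and 174. Arntl passed for the difference of the exposure effects under normexp, the stricter probe filter and trend with robust estimation, and not in the main setting (adjusted p = 0.0877). Of the other genes named, Cdkn1a lost its call under normexp, slide block and replicate block, Pdk4 under the brightest probe and slide block, Zbtb16 under slide block on D28 and replicate block on D0, Angptl4 between control groups and Ciart under replicate block, and Wee1 between exposed groups under normexp and replicate block (adjusted p from 0.00547 to 0.0725; the calls lost under normexp fell short of 1.5-fold). Of the 6 genes, 1 to 3 lay past both limits on D0 and 3 to 4 on D28 under the settings counted. That count left out the fits of the 2 groups alone and of single arrays left out. With the 2 D28 groups alone, 41 genes in all passed on D28 in place of 174. Dim probes limit what can be read of Ciart and the other two Hlf probes.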
